A study of Homo sapiens with 9 samples.

Results

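The RNA levels of 8 genes that start, carry out or hold back caspase activity were compared in cells of MDA-MB-231, an established line from a human breast cancer of the triple-negative type. They are 3 initiator caspases (CASP2, CASP8, CASP9), the effector caspase CASP6, the scaffold APAF1 and 3 caspase inhibitors (XIAP, BIRC2, CFLAR). They were chosen by gene symbol and not by their values, and all 8 were found among 46846 features, of which 25854 carried a symbol. Cells received DMSO (labelled 12 h), 3.3 µM indisulam for 12 h or 10 nM pladienolide B for 6 h, with 3 libraries of polyadenylated RNA in each group. Indisulam brings about the loss of RBM39, a splicing factor, by way of a ubiquitin ligase that holds DCAF15, and pladienolide B binds the SF3b complex that reads intron branch sites. The time differed with the drug for pladienolide B, so effects of the drug and of the shorter time cannot be told apart. The DMSO group was labelled with the longer time, and both drugs were compared with the same 3 DMSO libraries.

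Caspases are proteases that are made as inactive precursors and become active in a cascade. In the mitochondrial route, cytochrome c released into the cytosol drives APAF1 to assemble into the apoptosome, which activates caspase-9, and caspase-9 then cleaves the effector caspases. In the death receptor route, ligand-bound receptors recruit FADD and caspase-8. CFLAR, a caspase-8-like protein without protease activity, is recruited to the same complex and limits caspase-8 activation. XIAP binds and blocks caspases directly, whereas BIRC2 (cIAP1) is a ubiquitin ligase of the TNF receptor complex.

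The libraries held between 59312100 and 83910831 reads. The values are the authors' DESeq2-normalised read counts, and 3 reads, the upper limit that a count of 0 allows, correspond to 2.48 to 3.87 on that scale. All 8 genes lay far above that limit in every library, and limits of this kind cover counting error only. The labels name the libraries of a group as replicas and do not mention separate cultures. The p-values therefore cover the spread between these libraries, which may be technical. Of the markers of this mesenchymal-like line, VIM lay between 113029 and 194494, CD44 between 47307 and 82829 and AXL between 71048 and 135537. The hormone receptors ESR1 and PGR stayed at or under 2.04, and CDH1 lay between 54.7 and 117, while the epithelial genes ERBB2 (5102 to 5977) and EPCAM (961 to 1895) were present. Of the leukocyte and red cell markers, HBB was at 0 in all 9 libraries, CD3E did not exceed 3.66, PTPRC lay between 2.09 and 26.1 and HBA1 between 0 and 30.1. In bulk RNA, fewer cells with a transcript and less transcript per cell cannot be told apart. The table gives 1 value per gene, so isoforms and retained introns were not measured.

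With indisulam, the gene that rose was CASP2, and the other 7 genes did not pass the test. CASP2 encodes caspase-2, an initiator caspase linked to DNA damage and to cells with extra centrosomes. Its normalised count was 1094, 1140.4 and 1347 in the DMSO libraries and 1789, 1801 and 1984 with indisulam. Every indisulam library lay above every DMSO library. The mean went from 1194 ± 135 to 1858 ± 110 (SD, n = 3), 1.56-fold higher, a log2 fold change of 0.64 ± 0.10 (SE) with a limma adjusted p = 0.000421 (Benjamini-Hochberg over 16846 features). CASP2 kept this call in all 21 alternative analyses, with log2 fold changes from 0.58 to 0.73. Of all features tested, 92.5% had a lower fold change with indisulam than CASP2.

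The count of 1 called gene among 8 stood beside 26.9% of all features called with indisulam, 14.5% called higher and 12.4% called lower. The median log2 fold change of the 8 genes was 0.08, and that of all features was 0.05. The values of the groups did not overlap for CASP2, CASP9 and APAF1, 3 of 8 genes, beside 48.4% of all features.

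CASP9, the initiator activated on the apoptosome, had normalised counts of 366, 309 and 329 in DMSO and 301, 255 and 282 with indisulam. All 3 indisulam values were below the DMSO values, although the highest of them was close to the lowest DMSO library. The log2 fold change was -0.26 ± 0.14 (SE), with a 95% interval from -0.55 to 0.04 and a limma adjusted p = 0.183. CASP8, the initiator of the death receptor route, had counts of 466, 455 and 521 in DMSO and 576, 477 and 472 with indisulam. These overlapped, and the log2 fold change of 0.08 ± 0.13 (SE) did not pass the test (limma adjusted p = 0.708).

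APAF1 had normalised counts of 1498, 1586 and 1497 in DMSO and 1822, 1735 and 1813 with indisulam. The groups were separate, with a log2 fold change of 0.23 ± 0.08 (SE), a 95% interval from 0.05 to 0.41 and a limma adjusted p = 0.0611. APAF1 therefore lay close to the threshold, and 6 of its 21 alternative analyses called it higher. Among them were edgeR on the recovered reads (adjusted p = 0.0423), DESeq2 (adjusted p = 0.0213), limma with the DMSO and indisulam libraries alone (adjusted p = 0.0107) and limma with the replicate number as a block (adjusted p = 0.0303). Leaving out pladienolide B replicate 1 or replicate 2, which changes the shared estimate of the spread, also gave a call (limma adjusted p = 0.0338 and 0.0262). Over all 21 the adjusted p went from 0.0107 to 0.183.

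The effector caspase and the inhibitors had overlapping values in DMSO and indisulam libraries. CASP6, which cleaves nuclear lamins, had a log2 fold change of -0.05 ± 0.07 (SE, limma adjusted p = 0.689). XIAP had counts of 1419, 1332 and 1417 in DMSO and 1418, 1445 and 1319 with indisulam. Its difference was estimated closely, with a log2 fold change of 0.00 and a 95% interval from -0.17 to 0.18 (limma adjusted p = 0.979). BIRC2 had a log2 fold change of 0.09 ± 0.08 (SE, limma adjusted p = 0.44), and CFLAR one of 0.11 ± 0.09 (SE, limma adjusted p = 0.378).

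**Figure D1:**
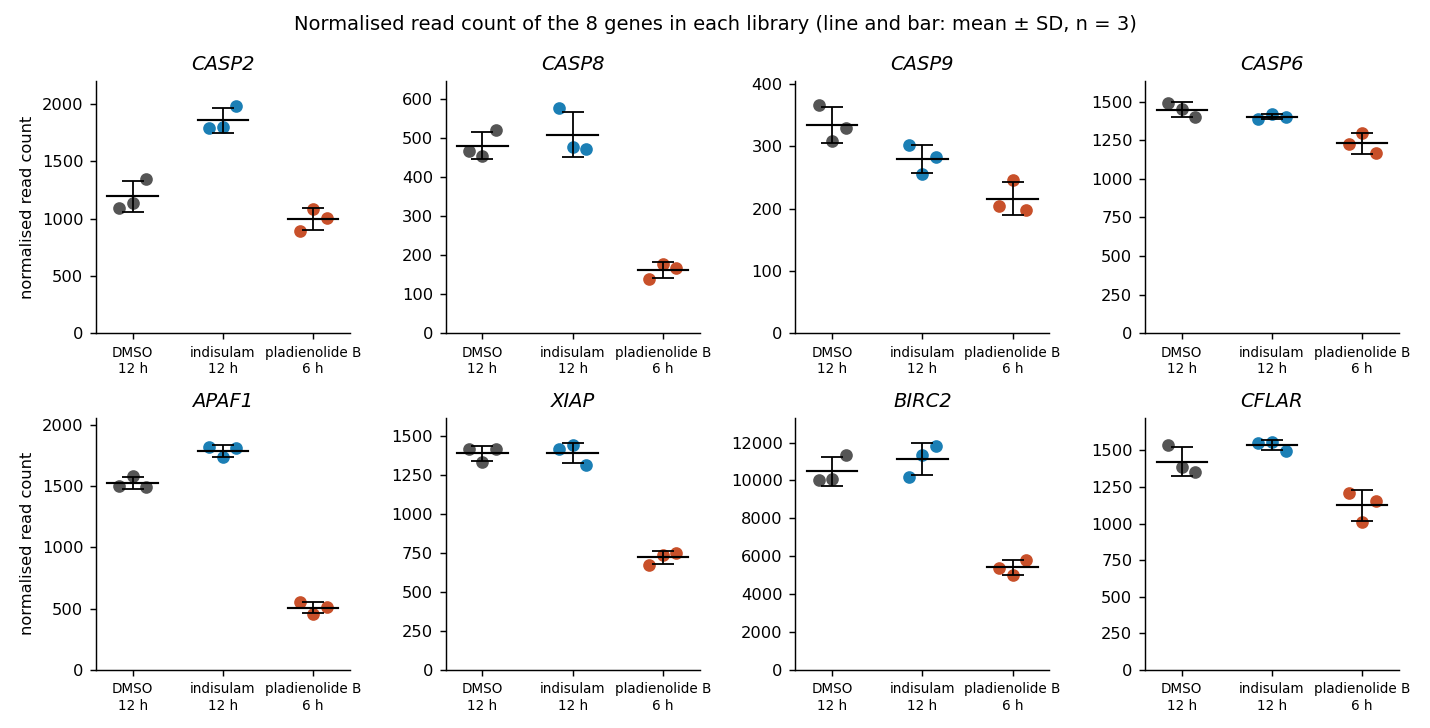
Normalised read count (vertical axes, starting at 0) of each of the 8 genes in the 3 libraries per group (points), with the mean and SD (lines and bars). CASP2 is highest with indisulam, while CASP8 and APAF1 with pladienolide B lie at 33.6% and 33.2% of their DMSO means.

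With pladienolide B, all 8 genes fell as deposited: the initiators, the effector, the scaffold and the inhibitors alike. APAF1 and CASP8 fell most, to 33.2% and 33.6% of their DMSO means, followed by BIRC2 (51.6%), XIAP (51.9%), CASP9 (64.5%), CFLAR (78.9%), CASP2 (83.2%) and CASP6 (84.9%). The values of the 3 pladienolide B and 3 DMSO libraries did not overlap for any of the 8. Non-overlapping values were found for 71.8% of all features, and 69.8% of all features were called, 35.5% lower and 34.3% higher. The median log2 fold change of the 8 genes was -0.79, and that of all features was -0.01. After quantile normalisation, another scaling of the libraries, 4 of the 8 were called lower, and CASP2 and CASP6 did not fall (0.03 and 0.01).

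APAF1 had 554, 459 and 509 normalised counts with pladienolide B, against 1498, 1586 and 1497 in DMSO. The lowest DMSO library held more than any pladienolide B library by a margin far wider than either group's spread. The mean went from 1527 ± 51.2 to 507 ± 47.4 (SD, n = 3), and the log2 fold change was -1.59 ± 0.08 (SE, limma adjusted p = 1.8e-09). Of all features tested, 8.51% had a more negative fold change than APAF1.

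Among the initiators, CASP8 moved most. It had 139, 178 and 167 counts with pladienolide B and at least 455 in each DMSO library, and the means were 162 ± 19.9 and 480.4 ± 35.3 (SD, n = 3). Its log2 fold change was -1.57 ± 0.13 (SE, limma adjusted p = 1.47e-07). CASP9 had 204, 246 and 198 counts with pladienolide B, each below the lowest DMSO value of 309. Its log2 fold change was -0.63 ± 0.14 (SE, limma adjusted p = 0.000895). CASP2 had 891, 1082 and 1006 counts with pladienolide B, and the highest of these lay just under the lowest DMSO library at 1094. The log2 fold change of -0.26 ± 0.10 (SE, limma adjusted p = 0.0287) was lost without DMSO replicate 3 (-0.17, adjusted p = 0.153) or without pladienolide B replicate 1 (-0.19, adjusted p = 0.112). It was also lost without a mean trend (adjusted p = 0.0584) and with the DMSO and pladienolide B libraries alone (adjusted p = 0.0519), both with the same fold change.

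CASP6 had 1229, 1301 and 1166 counts with pladienolide B and 1495, 1457 and 1400.01 in DMSO. The groups were separate but close, with a log2 fold change of -0.24 ± 0.07 (SE, limma adjusted p = 0.0106). The last 92 bases of the CASP6 feature, at chr4:109688628-109688719 (hg38), are shared with the converging gene MCUB, an inhibitory subunit of the mitochondrial calcium channel. MCUB had a mean over all libraries that was 170% of that of CASP6, and it rose with pladienolide B, with means of 1907 ± 47.6 in DMSO and 3153 ± 184 after treatment (SD, n = 3). Its log2 fold change was 0.72 ± 0.07 (SE, limma adjusted p = 3.64e-07). How the counting assigned reads of the shared stretch was not tested. The other overlaps were with genes of low counts, ANKS1B at 0.608% of the APAF1 mean and CELA2B, whose mean was 0.229, at CASP9.

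The inhibitors fell by different amounts. BIRC2 had 5379.99, 5029.9 and 5822 counts with pladienolide B, against 9999.8, 10086 and 11364 in DMSO. XIAP had 675, 740.3 and 748 against the DMSO values of 1419, 1332 and 1417. For both genes every treated library was far below every control library, and the log2 fold changes were nearly equal, -0.95 ± 0.08 for BIRC2 (SE, limma adjusted p = 7.59e-08) and -0.95 ± 0.08 for XIAP (SE, limma adjusted p = 1.43e-07). CFLAR moved less, from 1534, 1386 and 1351 in DMSO to 1206, 1007 and 1157. These groups were also separate, with a log2 fold change of -0.34 ± 0.09 (SE, limma adjusted p = 0.0027).

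**Figure D2:**
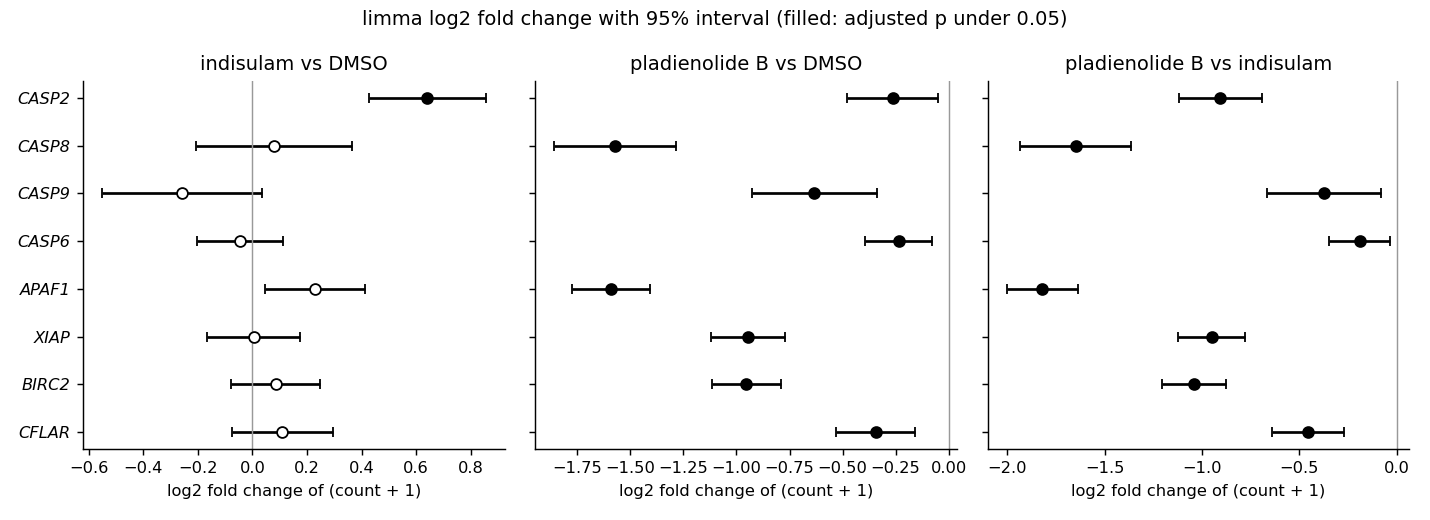
Log2 fold change of (normalised count + 1) from limma (horizontal axes, each panel with its own range) with its 95% interval for the 8 genes in the 3 comparisons, filled where the adjusted p is under 0.05. CASP2 is the filled point in the indisulam panel at 0.64, and all 8 points are filled and below 0 in both pladienolide B panels.

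For XIAP and BIRC2, the inhibitors with nearly equal fold changes as deposited, the 160 bases before 1 RefSeq start each are shown, the start nearest to that of the deposited feature. The sequences are from RefSeq (GRCh38.p14), plus strand, 5′ to 3′, with matches to the motifs searched in capitals. The XIAP window is chrX:123859548-123859707 and the BIRC2 window is chr11:102347054-102347213, and both end at the base before the deposited start of the gene.
XIAP: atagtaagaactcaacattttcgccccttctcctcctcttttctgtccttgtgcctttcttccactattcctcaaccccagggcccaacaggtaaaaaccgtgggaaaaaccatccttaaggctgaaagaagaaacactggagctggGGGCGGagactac
BIRC2: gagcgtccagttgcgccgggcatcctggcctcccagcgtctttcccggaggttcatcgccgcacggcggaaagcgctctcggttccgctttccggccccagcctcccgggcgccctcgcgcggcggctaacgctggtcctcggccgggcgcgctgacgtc
The windows differed in base composition, with 48.75% G or C for XIAP and 73.75% for BIRC2. The motifs searched on both strands were the CCAAT box (those letters), the GC box (the letters GGGCGG), the TATA box (the letters TATAAA) and a form of the E2F site (the letters TTTNGCGC). No motif contains another. XIAP held 1 GC box, 13 bases before the start, and BIRC2 held no match to these letters in this window. Over 35116 RefSeq promoter windows of the same length, 37.5% held the GC box, 24.5% the CCAAT box, 7.04% the TATA box and 1.07% the E2F form. RefSeq lists further starts for both genes, and their windows held 0 and 2 GC boxes for XIAP and 1 for BIRC2, so the difference between the genes depends on the start. A match is a description of the letters and not of a site in use.

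The sizes of the pladienolide B changes depended on how libraries were scaled. The deposited normalised totals lay between 60435009 and 63690595 in the DMSO and indisulam libraries and between 82366487 and 87510746 in the pladienolide B libraries. The median log2 fold change of all features was -0.01 as deposited, -0.12 with TMM scaling, -0.48 with the same total in each library and 0.05 after quantile normalisation. All 8 genes were called lower as deposited, with TMM and with equal totals, and 4 after quantile normalisation. APAF1, CASP8, BIRC2 and XIAP were called lower under all 4 scalings. APAF1 was the most negative with equal totals (-2.06) and the least negative with quantile normalisation (-1.27), which is -1.59 and -1.32 relative to the median of all features. CASP8 went likewise from -2.04 to -1.28 and XIAP from -1.42 to -0.61. BIRC2 was at -1.43 with equal totals, -1.14 after quantile normalisation and -0.95 as deposited, so it and XIAP were no longer nearly equal after quantile normalisation. After quantile normalisation CASP9 was at -0.32 (limma adjusted p = 0.0608) and CFLAR at -0.08 (limma adjusted p = 0.397). There CASP2 and CASP6 turned to 0.03 and 0.01 (limma adjusted p = 0.822 and 0.893), so their direction with pladienolide B held under 3 of the 4 scalings. The share of calls that were higher was 49.1% of all called features as deposited, 43.3% with TMM, 23.1% with equal totals and 52.7% after quantile normalisation. For indisulam the same shares were 53.8%, 42.4%, 40.3% and 50.4%, and CASP2 was called higher under each.

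**Figure D3:**
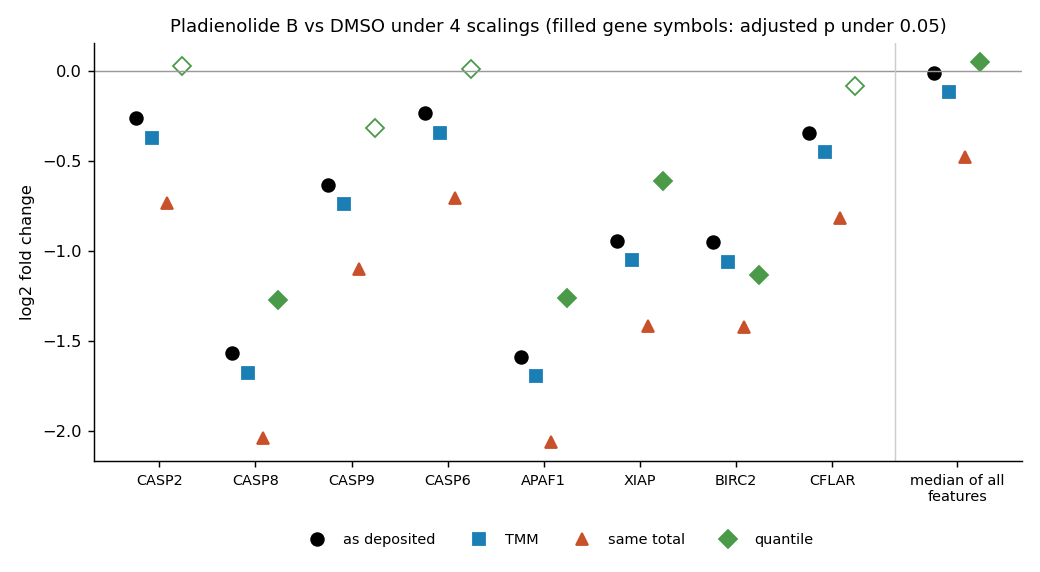
Log2 fold change between pladienolide B and DMSO (vertical axis) for the 8 genes and for the median of all features under 4 scalings of the libraries (symbols), with gene symbols filled where the limma adjusted p is under 0.05. APAF1, CASP8, XIAP and BIRC2 are filled and below 0 under all 4, while CASP2, CASP9, CASP6 and CFLAR are open after quantile normalisation.

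Between the drugs, all 8 genes were lower as deposited with pladienolide B (6 h) than with indisulam (12 h), and no gene had overlapping values. Non-overlapping values were found for 71.8% of all features, and 70.3% of all features were called, 35.6% lower and 34.7% higher. The median log2 difference was -0.93 for the 8 genes and 0.01 for all features. CASP2 differed by -0.91 ± 0.10 (SE, limma adjusted p = 1.88e-06), and its mean with pladienolide B was 53.4% of that with indisulam. Against DMSO, CASP2 had moved in opposite directions as deposited, but its fall with pladienolide B did not hold in every alternative analysis. APAF1 differed by -1.82 ± 0.08 (SE, limma adjusted p = 5.54e-10) and CASP8 by -1.65 ± 0.13 (SE, limma adjusted p = 9.58e-08). BIRC2 differed by -1.04 ± 0.08 (SE, limma adjusted p = 3.5e-08), XIAP by -0.95 ± 0.08 (SE, limma adjusted p = 1.43e-07) and CFLAR by -0.45 ± 0.09 (SE, limma adjusted p = 0.000314).

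The calls of CASP9 and CASP6 between the drugs were near the threshold. CASP9 differed by -0.37 ± 0.14 (SE, limma adjusted p = 0.0245), which was lost without indisulam replicate 1 or 3 (adjusted p = 0.0887 and 0.0604) or without pladienolide B replicate 1 or 3 (adjusted p = 0.0634 and 0.0724). CASP6 differed by -0.19 ± 0.07 (SE, limma adjusted p = 0.0322), which was lost without indisulam replicate 1, 2 or 3 (adjusted p = 0.0568, 0.0876 and 0.0702) or without pladienolide B replicate 3 (adjusted p = 0.097). The fold change was then between -0.20 and -0.15, and the call was also lost with the libraries of the drugs alone (-0.19, adjusted p = 0.063). After quantile normalisation 5 of the 8 genes were called lower, with CFLAR at -0.20 (limma adjusted p = 0.0507), CASP9 at -0.07 and CASP6 at 0.06.

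Ratios of normalised counts within a library do not depend on the library's scaling factor, and so compare the groups without it. Their absolute size also depends on gene length, so they are compared between groups and not between gene pairs. The pairs were chosen after the values were seen, and 18 comparisons were tested by exact two-sided permutation of the libraries, which cannot go below p = 0.1 with 3 against 3. Each comparison without overlap had that smallest exact p = 0.1, or 0.138 after Benjamini-Hochberg adjustment over the 18 exact tests.

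The ratio of CFLAR to CASP8 was 3.29, 3.05 and 2.59 in DMSO, 2.69, 3.26 and 3.17 with indisulam, and 8.65, 5.66 and 6.91 with pladienolide B. The pladienolide B libraries lay above all others, although they also spread the most. The ratio was 2.35-fold higher than in DMSO, a log2 difference of 1.23 ± 0.20 (SE). DMSO and indisulam overlapped (exact permutation p = 0.8).

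The ratio of APAF1 to CASP9, the scaffold to the initiator that it activates, was 4.09, 5.14 and 4.55 in DMSO. It was 6.05, 6.79 and 6.43 with indisulam and 2.72, 1.86 and 2.57 with pladienolide B. The 3 groups were thus separate, with indisulam above and pladienolide B below DMSO. XIAP to CASP9, the inhibitor to its target, was ordered in the same way, with means of 5.01 ± 0.557 for indisulam, 4.17 ± 0.251 for DMSO and 3.37 ± 0.391 for pladienolide B (SD, n = 3). CASP2 to CASP9 was higher than in DMSO (3.59 ± 0.559) with both drugs, at 6.67 ± 0.638 for indisulam and 4.62 ± 0.404 for pladienolide B (SD, n = 3).

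BIRC2 to XIAP had a DMSO mean of 7.55 ± 0.487, an indisulam mean of 8.01 ± 0.907 and a pladienolide B mean of 7.51 ± 0.630 (SD, n = 3). The groups overlapped in each of the comparisons, and the difference between pladienolide B and DMSO was -0.01 ± 0.09 on the log2 scale (SE, exact permutation p = 0.9). BIRC2 to BIRC3, its closest relative and neighbour, was 5.15 ± 0.652 in DMSO libraries, 4.95 ± 0.343 in those of indisulam and 2.35 ± 0.493 in those of pladienolide B (SD, n = 3). Here the pladienolide B libraries were below all others.

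**Figure D4:**
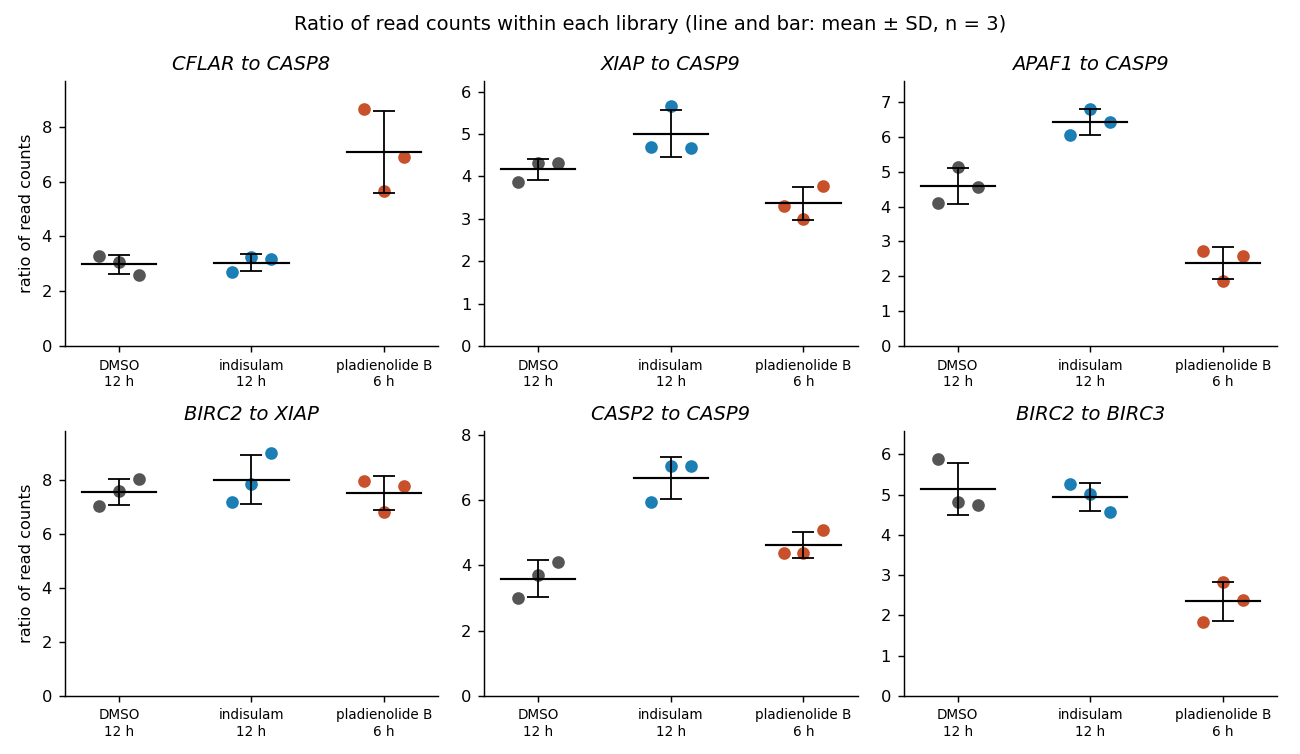
Ratio of the normalised counts of 2 genes within each library (vertical axes, starting at 0) in the 3 groups, with points for libraries and lines and bars for the mean and SD. CFLAR to CASP8 with pladienolide B reaches 5.66 to 8.65, above every other library, whereas BIRC2 to XIAP overlaps among all 3 groups.

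Per kb of annotated exonic sequence (GENCODE 29, all transcripts of a gene merged), BIRC2 was the highest of the 8 in DMSO, at 2313 ± 169 normalised counts per kb, followed by CASP6 at 746 ± 24.5 (SD, n = 3). APAF1 was next at 193 ± 6.47, and XIAP (154 ± 5.53) and CASP2 (149 ± 16.8) did not differ beyond their spread. CASP8 (66.3 ± 4.88), CASP9 (63.5 ± 5.53) and CFLAR (63.2 ± 4.31) were the lowest and also lay within each other's spread. With indisulam CASP2 reached 232 ± 13.7 per kb, within the spread of APAF1 at 226 ± 6.07. With pladienolide B the order below BIRC2 (1194 ± 87.6) and CASP6 (634 ± 34.9) was CASP2 (124 ± 12.0), XIAP (79.9 ± 4.44), APAF1 (64.1 ± 5.99), CFLAR (49.9 ± 4.59), CASP9 (41.0 ± 5.02) and CASP8 (22.3 ± 2.75). APAF1 thus went from above XIAP and CASP2 in DMSO to below both, and CASP8 became the lowest. Genes whose long transcripts are not used in these cells are understated on this scale.

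The 8 genes differ in structure, and genes with the same number of introns in the longest coding transcript differed in their change with pladienolide B. APAF1 had 26 introns over a span of 90293 bases (chr12:98645141-98735433, hg38), the most of the 8. CASP8, with a fall of similar size, had 8 introns over 54269 bases (chr2:201233443-201287711). XIAP (chrX:123859708-123913972) and CASP6 (chr4:109688628-109703473) had 6 introns each, with log2 fold changes of -0.95 and -0.24. CASP2 (chr7:143288351-143307696) had 10 introns and CFLAR (chr2:201116154-201176688) had 9. BIRC2 (chr11:102347214-102378670) had 8 and CASP9 (chr1:15488240-15524790) had 7. Transcripts annotated as targets of nonsense-mediated decay, the pathway that removes messages with early stop codons, numbered 2 for CASP9 and 1 each for CASP2, CASP8, BIRC2 and CFLAR. APAF1, CASP6 and XIAP had no such transcript in this annotation.

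Of 34 further genes of the caspase pathway, 33 were found by symbol and 29 passed the filter on low values. With indisulam 3 were called higher, 3 lower and 23 not, beside 14.5% higher and 12.4% lower of all features, so the share called was not above that of all features. The median log2 fold change was 0.08, next to 0.05 for all features. The rises were in ENDOG, a mitochondrial nuclease (0.30, limma adjusted p = 0.0201), BIRC5 (survivin; 0.24, limma adjusted p = 0.0127) and TRAF2, the adaptor that brings BIRC2 to TNF receptors (0.21, limma adjusted p = 0.0378). The falls were in PIDD1, the scaffold of the caspase-2 activating complex (-0.42, limma adjusted p = 0.00486), TNFRSF10A, a TRAIL receptor (-0.34, limma adjusted p = 0.0148), and HTRA2, a mitochondrial protease that binds XIAP (-0.28, limma adjusted p = 0.0114). PIDD1 thus fell where CASP2 rose, from 818 ± 45.3 to 609.5 ± 49.5 (SD, n = 3). The other protein of that complex, the adaptor CRADD, was at 0.23 ± 0.14 (SE, limma adjusted p = 0.249). All 3 rises were lost when single libraries were left out: TRAF2 without any 1 DMSO or indisulam library, and BIRC5 without DMSO replicate 3 or without indisulam replicate 2 (adjusted p = 0.0585 and 0.0503). ENDOG was lost without DMSO replicate 1 or 3 (adjusted p = 0.0774 and 0.0549) and without indisulam replicate 2 or 3 (adjusted p = 0.092 and 0.0782). TNFRSF10A was no longer called without DMSO replicate 1 or indisulam replicate 1 or 2 (adjusted p = 0.0512, 0.0537 and 0.0505), nor HTRA2 without DMSO replicate 2 (adjusted p = 0.0547). ENDOG and HTRA2 overlap SPOUT1 and AUP1, whose means over all libraries were 1755 and 9654.

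With pladienolide B 17 of the 29 were called lower, 7 higher and 5 not, beside 35.5% lower and 34.3% higher of all features. The median log2 fold change was -0.34, next to -0.01 for all features. Of the death ligands, receptors and adaptors, 8 of the 9 tested fell, beside the same 35.5% of all features. RIPK1, the kinase of the TNF receptor complex that BIRC2 ubiquitinates, went from 2417, 2598 and 2611 to 371, 373 and 361 (log2 fold change -2.78, limma adjusted p = 1.22e-11). TRAF2 went from 2994 ± 72.1 to 770.1 ± 48.8 (SD, n = 3; -1.96, limma adjusted p = 4.96e-11) and TNFRSF1A, the TNF receptor, fell by 1.91 on the log2 scale (limma adjusted p = 6.36e-09). The feature of TNFRSF1A shares 10114 bases with a feature named GAPDH that has a mean of 314479, and how reads were assigned between them was not tested. Among the other caspases, the death receptor caspase CASP10 fell, with a log2 fold change of -1.26, next to 0.25 for CASP4 (limma adjusted p = 0.0795).

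The mitochondrial and XIAP-binding proteins were mixed with pladienolide B as deposited, with 2 higher, 2 lower and 2 not called. CYCS, cytochrome c, rose, from a DMSO mean of 20960.2 ± 1090 to one of 37430 ± 2342 (SD, n = 3), a log2 fold change of 0.84 (limma adjusted p = 1.49e-07). Of 4 genes grouped as caspase substrates or their partners, 2 rose and 2 fell as deposited. DFFB, the nuclease that cuts chromatin into fragments in apoptosis, fell from 117 ± 13.2 to 16.5 ± 1.5 (SD, n = 3; -2.75, limma adjusted p = 4.62e-08), while DFFA, which holds it inactive, rose by 0.23 on the log2 scale. PARP1, a DNA repair enzyme cleaved by effector caspases, rose by 0.62 (limma adjusted p = 1.11e-07). Over the 21 alternative analyses the log2 fold change went from 0.28 to 0.89 for CYCS and from 0.14 to 0.63 for PARP1, called in each. With the same total in each library, these were the only 2 of the 29 pathway genes called higher. The other rises, that of DFFA among them, were not called there.

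The called rise with the highest fold was that of CASP1, the inflammatory caspase (1.33, limma adjusted p = 0.0397), at means of 7.17 ± 3.35 and 19.2 ± 7.21 (SD, n = 3). CASP1 is low in all libraries and lost its call in 9 alternative analyses, among them those without DMSO replicates 1 and 3 in turn (adjusted p = 0.0747 and 0.133), pladienolide B replicates 1 and 3 in turn (adjusted p = 0.135 and 0.0644) and indisulam replicate 1 (adjusted p = 0.0515). CRADD, called higher at 0.37 (limma adjusted p = 0.03), lost its call with TMM scaling (0.26, adjusted p = 0.112) and turned to -0.10 with equal totals. It was also lost without DMSO replicate 3 (adjusted p = 0.165), pladienolide B replicate 1 (adjusted p = 0.0965) or replicate 3 (adjusted p = 0.0648). As deposited, PIDD1 was lower than DMSO, as CASP2 was, with means of 818 ± 45.3 in DMSO and 652 ± 21.1 with pladienolide B (SD, n = 3). Between the drugs, 15 of the 29 were lower with pladienolide B and 6 higher, beside 35.6% and 34.7% of all features, with medians of -0.16 and 0.01.

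**Figure D5:**
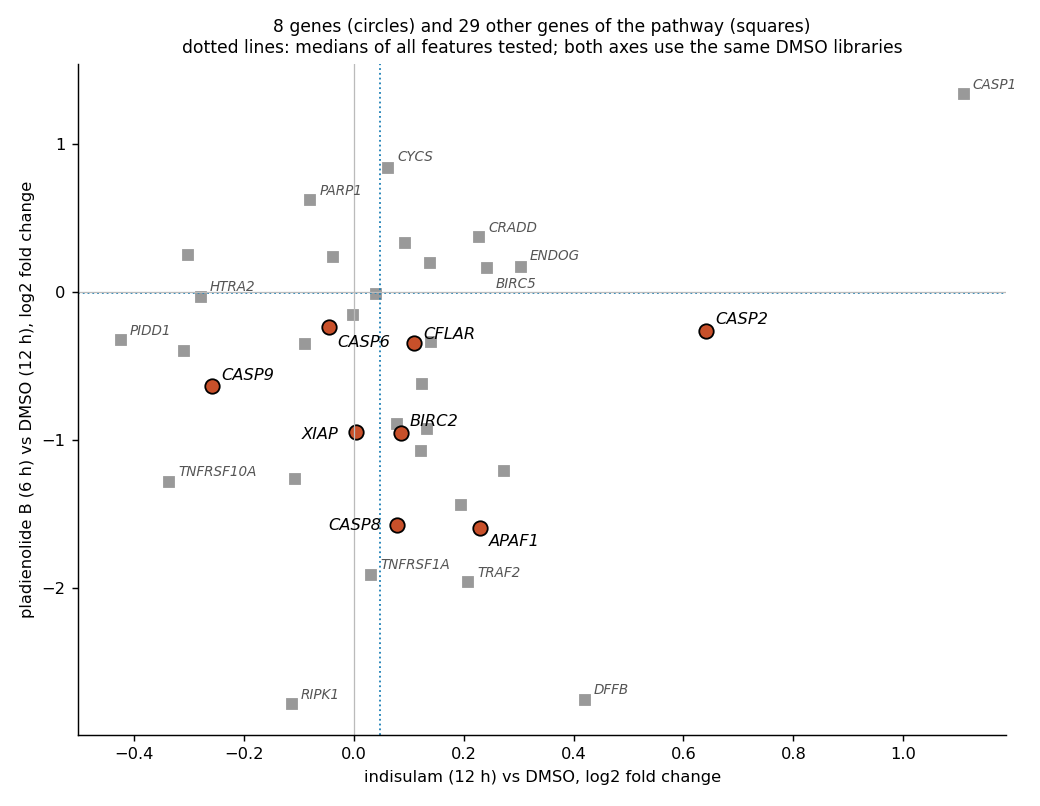
Log2 fold change with indisulam (horizontal axis) and with pladienolide B (vertical axis), each against the same DMSO libraries, for the 8 genes (circles) and 29 other genes of the pathway (squares). Of the circles CASP2 lies farthest to the right, at 0.64 and -0.26, and of the squares RIPK1 and DFFB lie lowest at -2.78 and -2.75.

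For each of the 8 genes, the feature with the most similar profile over the 9 libraries was sought among 11526 (11525 for CASP6) with a symbol and a mean of at least 100, by the root-mean-square difference of log2 values from their DMSO means. For CASP2 it was CRCP (difference 0.0732), with log2 fold changes of 0.57 with indisulam and -0.29 with pladienolide B. For APAF1 it was NIF3L1 (0.0479), with 0.22 and -1.58, and for CASP8 it was PPCDC (0.0680), with 0.07 and -1.62. The nearest features were also PLEKHG2 for CASP9 (0.0891), KIFC3 for CASP6 (0.0209), PUM2 for XIAP (0.0485) and NOL11 for BIRC2 (0.0420). CASP6 had the closest neighbour, and CASP9, one of the genes with low counts, the most distant. All profiles share the same 9 libraries and their scaling.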

How the data were processed

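Polyadenylated RNA of MDA-MB-231 cells was sequenced in 9 libraries, 3 per group, from a stranded kit, per the labels' protocols. The values in the deposited table are a signal for each feature in each library, namely the read count divided by 1 size factor per library with DESeq2 by the authors, per the name of the deposited table. FastQC, Picard, SAMtools, STAR 2.7.5a and hg38 are named, per the submitters' processing notes. How reads were counted, and with which strand setting, is not given in the sources used here. All values (100%, tolerance 0.01) corresponded to whole reads, which were recovered.

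Features with a mean of at least 10 (16846, all 8 genes among them) were tested on log2(value + 1) with limma 3.58.1 in R 4.3.3, using a variance trend and all 9 libraries in 1 fit, two-sided, Benjamini-Hochberg adjusted at 0.05. Fold changes on this scale understate those of low genes. The code was tested on simulated data. Alternatives were TMM, equal totals, quantile normalisation, other pseudocounts and filters, no trend, the compared groups alone, edgeR 4.0.16 and DESeq2 1.42.0 on recovered reads, a replicate block and leaving out each library. No pair of libraries of 1 group agreed within sampling noise (lowest chi-square per feature 8.68). Gene structure came from GENCODE 29 and promoters from RefSeq GRCh38.p14. Of 34 pathway genes, NAIP was not analysed here.

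The genes, lists and tests were chosen with earlier results of these data known. Named were all 8 genes and, of the pathway genes for each drug against DMSO, up to 4 called in each direction with the largest fold change, and for each of the 8 genes the nearest profile and any overlapping feature. The ratios, the promoters shown and the other pathway genes named were chosen after their values were seen. A few genes under this rule are not reported here.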

Additional observations from a re-analysis of the deposited data

How the results depend on the processing

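For the 8 genes, 478 of the values under alternative settings kept their side of the threshold, 17 lost a call, 6 gained one and 3 turned. For the named pathway genes the same counts were 755, 43, 11 and 7. A turn was counted only where the main or the alternative value was called. The values counted as kept thus include uncalled ones that changed sign, such as XIAP with indisulam (0.00 as deposited and -0.05 with equal totals). With indisulam, 1 of the 8 genes was called higher, and 2 with the compared groups alone, with edgeR, with DESeq2 and with a replicate block, the added gene being APAF1 (range over left-out libraries 1 to 2). The replicate numbers were not taken to pair the libraries, since the labels name nothing they share and 3 of 9 same-numbered pairs had a correlation of deviations over 0.1 (0.00266 to 0.128). In 16 of 18 combinations a library was highest with its own number, a hint of pairing from the data. With the replicate block 3548 features were called higher with indisulam in place of 2437, and the count of the 8 genes called lower with pladienolide B stayed at 8. Leaving out 1 library gave 0 to 4 pathway genes called higher with indisulam (3 with all), 4 to 7 with pladienolide B (7 with all) and 1565 to 2982 features higher with indisulam, the lowest without indisulam replicate 3 and 1620 without DMSO replicate 2. Quantile normalisation gave 4 of the 8 genes lower with pladienolide B against DMSO and 5 against indisulam. It turned CASP2 to 0.027 and CASP6 to 0.012 against DMSO, CASP6 to 0.061 against indisulam, and BIRC5 to -0.35 and PIDD1 to 0.051 against DMSO. With equal totals, 5 pathway genes were lower with indisulam, 2 higher with pladienolide B against DMSO (3 with TMM) and 2 against indisulam. All features called higher with pladienolide B then numbered 2733 against DMSO (5776 as deposited) and 3013 against indisulam (5842), and those lower than DMSO 9086 (5976). Equal totals also turned BIRC5 to -0.31, CRADD to -0.10 and ENDOG to -0.30 against DMSO, and PIDD1 to -0.32 and HTRA2 to -0.17 against indisulam. The cause of these changes was not tested. TRAF2 lost its indisulam call in 9 alternatives. With 3 libraries per group, exact tests of single values cannot go below p = 0.1.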

Other observations

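Some of these genes are neighbours in the genome and moved unequally with pladienolide B. CFLAR, CASP10 and CASP8 lie side by side on chromosome 2 (hg38), at positions 201116154-201176688, 201183112-201229406 and 201233443-201287711. Their log2 fold changes against DMSO were -0.34 ± 0.09, -1.26 ± 0.20 and -1.57 ± 0.13 (SE). CASP10 had values of 107, 111 and 112 in DMSO and 52.2, 41.3 and 43.1 with pladienolide B, so both caspases of this cluster were lower than DMSO by more than CFLAR was. BIRC3 (chr11:102317484-102339403) precedes BIRC2 on chromosome 11 and encodes the related inhibitor cIAP2. It had 1696, 2097 and 2403 counts in DMSO and 2929, 1782 and 2449 with pladienolide B, which overlap, with a log2 fold change of 0.19 ± 0.17 (SE, limma adjusted p = 0.314) where that of BIRC2 was -0.95 ± 0.08 (SE). Of the differences between neighbours, those of BIRC2 with BIRC3 and of CFLAR with CASP8 were compared as ratios. The exact permutation test used there cannot go below p = 0.1, so it could not call them. The differences with CASP10 were not tested.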
